A study of Mus musculus with 6 samples.

Results

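The input libraries are the RNA of freshly isolated satellite cells (fiSCs) before any immunoprecipitation. They are the 2 of 6 libraries in the series whose labels give input RNA and no antibody, and the other libraries, from a CPEB1 or an IgG immunoprecipitation, were not used. Both came from C57BL/6 mice aged 3 months. Per the study's methods, hindlimb muscle was digested with collagenase, the cells that were CD31-, CD45-, Sca1- and Vcam1+ were sorted, and the lysate was made into cDNA by SMART-Seq2, which amplifies full-length polyadenylated RNA. No allele, transgene or treatment was named for these mice, and muscle was not fixed before the cells were released. The labels number the libraries as replicates 1 and 2 but do not say whether they came from separate mice, so the spread between them may be technical. There is no second group here, so levels are described and no test was made.

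Satellite cells (SCs) are the stem cells of skeletal muscle and lie between the myofibre membrane and the basal lamina. At rest they keep out of the cell cycle under the transcription factor PAX7 and Notch signalling, and after injury they induce MYOD1, divide and fuse into fibres. Digestion and sorting of muscle are known to start an early part of this response, with induction of immediate early genes and chaperones. In bulk RNA, fewer cells of a type and less RNA per cell cannot be told apart.

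Of 55376 genes in the table, 11025 had an FPKM of at least 1 in both replicates and are called detected. FPKM is the count of fragments scaled by summed exon length and by the library total. Detected genes made up 19.9% of all genes and 42.2% of the 21888 protein-coding genes, 9247 of which were detected. Each count of detected members below, for a list or family of protein-coding genes, is to be read beside this 42.2%. A level of 10 FPKM was reached in both replicates by 3436 genes, 100 FPKM by 278 genes and 500 FPKM by 30 genes. No read was counted in either replicate on 32006 genes. Counts on genes summed to 3270067 in replicate 1 and 3314547 in replicate 2, and a count of 1 on a gene of 2000 bases equalled 0.109 and 0.120 FPKM.

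The replicates ordered the detected genes alike, with a Pearson correlation of log2 FPKM of 0.964 and a Spearman correlation of 0.949 across 11025 genes, which are not independent replicates. Their counts differed by more than sampling noise (chi-square per gene 5.86 over 11922 genes, where noise alone gives about 1), so they were counted as 2 libraries. That value says nothing of whether they share mice or cells. The median gene was higher in replicate 2 by 0.16 on the log2 FPKM scale, and counts on genes were 71.1% and 79.8% of the library totals used for the FPKM. On a TPM scale, which sums to the same total in each library, the median shift was -0.04. Values below are given for replicate 1 and then replicate 2 in FPKM, so a small excess in replicate 2 is shared by most genes. More than 2-fold apart were 534 of 10887 genes (4.9%), 271 higher in replicate 2 (2.49%) and 263 higher in replicate 1 (2.42%). This share fell with the level, from 6.84% of genes between 1 and 5 FPKM to 0.307% of those at 100 FPKM or more.

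**Figure D1:**
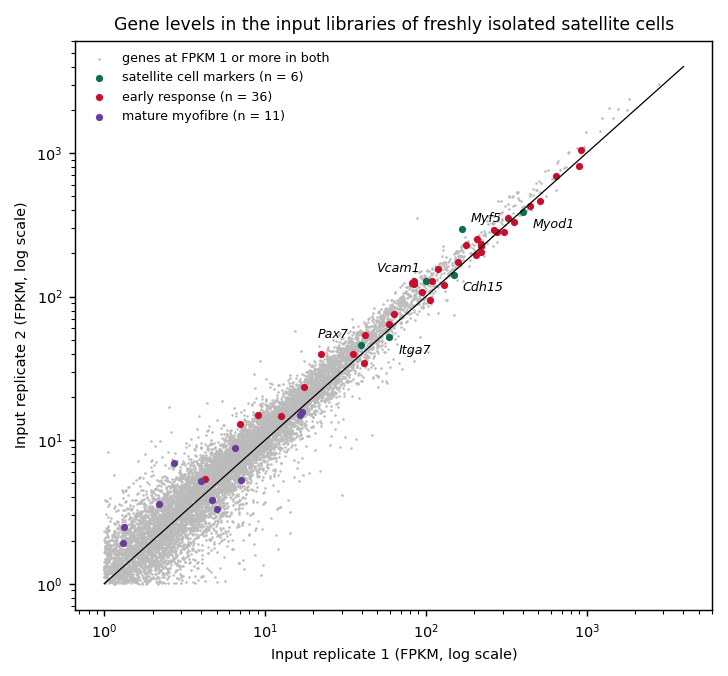
Level of each detected gene in FPKM (log scales) in input replicate 1 (x) and replicate 2 (y), with the line of equal level, the 6 SC markers (green, named), the 36 early response genes (red) and the 11 detected mature myofibre genes (purple). The markers lie between 39.8 and 46.0 FPKM for Pax7 and 404 and 389 FPKM for Myod1, Myf5 standing furthest from the line, and no myofibre gene reaches 20 FPKM.

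All 6 SC markers were detected and all 6 lay in the top decile of detected genes, a position held by 4.62% of protein-coding genes. Myod1, the transcription factor that commits the lineage to muscle (chr7:46376474-46379099, plus strand), was the most abundant of them, at 404 and 389 FPKM. Myf5, its paralogue and another myogenic determination factor (chr10:107482908-107486134, minus strand), stood at 167 and 294 FPKM, the widest gap of the 6 between replicates. Cdh15, which encodes the adhesion protein M-cadherin (chr8:122847966-122867397, plus strand), was at 149.5 and 142 FPKM. These 3 stood above the surface markers Vcam1 and Itga7. Vcam1, the adhesion molecule on which the cells were sorted (chr3:116109949-116129688, minus strand), had 101 and 128 FPKM, and Itga7, the laminin-binding integrin alpha 7 of the lineage (chr10:128933818-128958282, plus strand), had 59.3 and 52.0 FPKM. Pax7, the paired-box factor that defines SCs (chr4:139737062-139833528, minus strand), was the least abundant, at 39.8 and 46.0 FPKM, and still ranked 899 by mean FPKM among 11025 detected genes. For each of the 5 pairs of neighbours in this order, the replicates of the higher gene were above both replicates of the lower one. Positions are those of GENCODE M21 on GRCm38 (mm10), and the span of Vcam1 overlaps the predicted gene Gm43109 and that of Cdh15 the predicted gene Gm20388.

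The most abundant nuclear protein-coding mRNA of fiSCs was Gpx3, for a secreted glutathione peroxidase (chr11:54902453-54910377, plus strand, identifier ENSMUSG00000018339.11), at 2813 and 3018 FPKM. Sdc4, for the heparan sulphate proteoglycan syndecan 4 of the SC surface, followed at 1454 and 1757 FPKM, and Hspa5, for the main chaperone of the endoplasmic reticulum, at 1208 and 1415 FPKM. These were the only ranks among the first 20 at which the replicates of neighbouring genes did not overlap (2 of 19 neighbouring pairs). Below them, neighbours in the order are not resolved by these replicates.

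The other genes among the 20 fell into a few kinds. Immediate early transcription factors were Fos at 929 and 1042 FPKM, Junb at 893 and 817 FPKM and Egr1 at 647 and 692 FPKM. Cytosolic chaperones were Hsp90ab1 at 667 and 885 FPKM, Hspb1 at 742 and 799 FPKM and Hspa8 at 657 and 846 FPKM. Among secreted factors, Gal, for the neuropeptide galanin, had 969 and 1100.4 FPKM, and Erfe, for the hormone erythroferrone that lowers hepcidin, had 646 and 552 FPKM. Asb5, for an ankyrin repeat protein with a SOCS box, had 985 and 1396 FPKM, and Errfi1, for an inhibitor of EGF receptor signalling, had 869 and 1078 FPKM. Asb5 had the widest ratio of the 20 between replicates, 1.42. Genes common to most cells were Eef1a1 (translation elongation) at 781 and 1022 FPKM, Actb (cytoplasmic actin) at 765 and 995 FPKM and Rplp0 (ribosomal stalk) at 725 and 786 FPKM. The list was completed by Ifitm3, for an interferon-inducible membrane protein, at 572 and 762 FPKM, the metallothionein Mt1 at 552 and 753 FPKM, the helix-loop-helix inhibitor Id3 at 613 and 659 FPKM and Pdpn, for the membrane glycoprotein podoplanin, at 519 and 621 FPKM. Replicate 2 was higher for 18 of the 20 in FPKM and for 11 of the 20 in TPM, so the direction depends on the scale for Gpx3, Gal, Fos, Hspb1, Rplp0, Egr1 and Id3. Junb and Erfe were higher in replicate 1 on both scales. Some spans overlap other genes (Asb5 with Spcs3, Junb with Prdx2, Erfe with Ilkap), and the strand setting of the counting is not given in the sources used here, so their counts may hold reads of those neighbours. Eef1a1 and Rplp0 also have processed pseudogenes with near-identical sequence, which makes their levels uncertain.

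**Figure D2:**
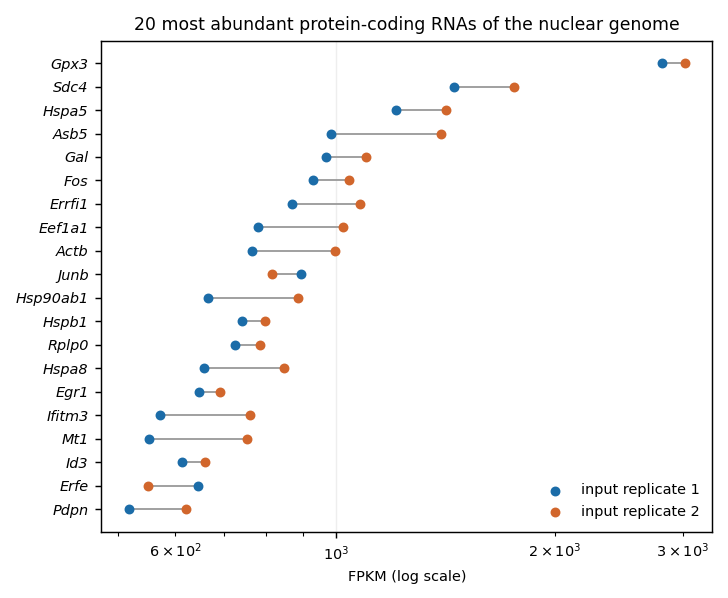
FPKM (log scale) of the 20 most abundant nuclear protein-coding genes, with a point for input replicate 1 (blue) and replicate 2 (orange) joined by a line. Gpx3 stands at 2813 and 3018 FPKM, apart from all others, and from Hspa5 down the lines of neighbouring genes overlap.

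Counts were spread over many genes. The 10 genes with most counts in each library, not scaled by length, held 4.79% and 5.16% of the counts. The 100 with most counts held 19.8% and 19.95%, and the 1000 with most counts 54.0% and 54.7%. On the TPM scale, which takes length into account, the share of the highest 100 was larger, at 26.0%. Ribosomal protein genes held 2.35% and 2.60%, and genes of the mitochondrial genome 1.43% and 1.66%. Processed pseudogenes of ribosomal proteins also took counts, such as Rpl14-ps1 at 85.2 and 119.9 FPKM, so the share of ribosomal protein genes is uncertain. Of 90 ribosomal protein genes, 85 were detected, with a median of 83.9 FPKM, and 81 of the 90 were higher in replicate 2 in FPKM and 70 in TPM. Mitochondrial messages were unequal in level: mt-Nd1 had 1839 and 2387 FPKM, mt-Cytb 1790.1 and 1993 FPKM and mt-Co1 1576 and 2042 FPKM, while mt-Co2 had 12.7 and 10.2 FPKM, mt-Co3 6.38 and 6.76 FPKM and mt-Atp6 13.1 and 10.3 FPKM. The nuclear genome holds copies of parts of the mitochondrial genome, and how reads that map to several places were counted is not given in the sources used here. The low values of mt-Co2, mt-Co3 and mt-Atp6 are therefore uncertain, and so is the share of counts on mitochondrial genes.

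Genes of the SC surface and niche were among the more abundant messages. Of 28 members, 26 were detected (42.2% of all protein-coding genes were), 16 reached 10 FPKM in both replicates and 11 were in the top decile, with a median of 27.6 FPKM beside 5.92 FPKM over all detected genes. Below Sdc4 stood the tetraspanin gene Cd82 at 446 and 499 FPKM, Dag1 for dystroglycan, a receptor for the basal lamina, at 313 and 317 FPKM, and Chodl, for the membrane lectin chondrolectin, at 179 and 241 FPKM. The calcitonin receptor gene Calcr, a mark of quiescent SCs, had 82.6 and 110.3 FPKM, and Chrdl2, for a secreted BMP-binding protein, had 76.1 and 76.4 FPKM. Spry1, an inhibitor of FGF signalling that SCs need to return to rest, had 90.9 and 106 FPKM, and Gas1, a growth-arrest gene, 79.9 and 129 FPKM. Fgfr1 and Fgfr4, the FGF receptors of the lineage, were at similar levels, with 134 and 123 FPKM for Fgfr1 and 109.9 and 101 FPKM for Fgfr4. Beta 1 integrin (Itgb1), the partner of integrin alpha 7, had 103 and 134 FPKM. Cd34 was lower, at 21.6 and 27.6 FPKM, and the chemokine receptor gene Cxcr4 was more than 2-fold apart between replicates, at 4.69 and 11.3 FPKM. Pax3, the paralogue of Pax7, stood at 1.76 and 1.44 FPKM, far below Pax7 in both replicates. Mstn, for the growth inhibitor myostatin that fibres make, had no count in either replicate, where 3 counts would have given 0.241 and 0.267 FPKM. Cdh2 (N-cadherin) was also under 1 FPKM, at 0.727 and 0.896 FPKM. In this list, Calcr, Chrdl2, Spry1, Gas1, Fgfr1, Fgfr4, Itgb1, Cd34, Cxcr4, Pax3 and Cdh2 were picked for naming after their values were seen.

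Notch signalling passes from ligands on a neighbouring cell to NOTCH receptors, whose cleaved domain joins RBPJ and switches on Hes and Hey genes. Of 16 genes of the pathway, 12 were detected (75%, against 42.2% of all protein-coding genes), with a median of 9.65 FPKM. The target gene Heyl was the highest, at 113 and 124 FPKM, and the receptor gene Notch3 was next, at 53.3 and 56.8 FPKM. The targets Hes1, at 22.3 FPKM in each, and Hey1, at 16.8 and 19.7 FPKM, stood lower. Heyl alone of the pathway reached 100 FPKM in both replicates.

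Myogenic commitment and differentiation genes covered a wide range of levels. Of 20 members, 12 were detected (60%, against 42.2% of all protein-coding genes), 5 were in the top decile and the median was 5.14 FPKM. The Id genes encode helix-loop-helix proteins that keep MYOD1 from its partners, and after Id3 they stood at 110.2 and 107 FPKM for Id1 and 52.3 and 71.2 FPKM for Id2. The intermediate filament gene Des had 297 and 318 FPKM. Myog, the factor that drives terminal differentiation, was detected at 13.5 and 10.6 FPKM, far below Myod1 and Myf5. Its fellow determination factor Myf6 was at 0.516 and 1.34 FPKM, and the fusion gene Mymk (myomaker) at 1.15 and 1.75 FPKM. Mymx (myomixer), the other fusion gene, had no count, where 3 counts would have given 0.635 and 0.704 FPKM. Embryonic myosin (Myh3) was near 0, at 0.108 and 0.0398 FPKM. Myog, Myf6, Mymk and Myh3 were named after their values were seen.

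Hox, Pitx, Tbx and Sox genes were examined after the values were seen. Hox genes mark position along the body axis and the limb, and 12 of 39 were detected, all below 20 FPKM. The highest were Hoxc10 at 15.7 and 18.0 FPKM, Hoxc9 at 5.81 and 7.83 FPKM and Hoxc6 at 3.25 and 4.601 FPKM. The limb genes Tbx4 and Tbx5 are background markers of hindlimb and forelimb, and Tbx4 was at 2.36 and 3.05 FPKM while Tbx5 had no count in either replicate. Pitx1, another hindlimb factor, had 0.164 and 0 FPKM, so the 2 hindlimb factors were not alike in level. Pitx3, which acts in the muscle lineage, had 13.96 and 10.6 FPKM. Sox9 was the most abundant of 19 Sox genes, at 96.3 and 87.1 FPKM.

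Early response genes were detected without exception and mostly at high levels. They are transcribed within minutes of a stimulus without new protein synthesis, and include AP-1 factors, EGR and NR4A factors, and their feedback inhibitors. Of the 36, all 36 were detected, 33 reached 10 FPKM and 20 reached 100 FPKM in both replicates, and 30 were in the top decile. Their median was 131 FPKM, and together they held 3.12% (95% exact binomial interval 3.10 to 3.14) of the counts in replicate 1 and 2.94% (2.92 to 2.95) in replicate 2, intervals that cover counting error only. The 4 highest were Fos, Junb, Egr1 and Ier2, the last at 514 and 465 FPKM. Myc, a driver of growth that is induced on exit from quiescence, had 442 and 424 FPKM, and Jun, the partner of FOS in AP-1, 305 and 283 FPKM. The phosphatase regulator gene Ppp1r15a (Gadd34), which restores translation after stress, had 353 and 332 FPKM. The antiproliferative gene Btg2 had 325 and 355 FPKM, Nr4a1 had 267 and 291 FPKM and the stress factor gene Atf3 had 208 and 253 FPKM. The lowest of the 36 was Klf2, at 4.24 and 5.35 FPKM. No member was more than 2-fold apart between replicates, the widest ratio being 1.86. Myc, Jun, Ppp1r15a, Btg2, Nr4a1, Atf3 and Klf2 were named after their values were seen.

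Promoters of these genes were read from 250 bases before to 50 after the RefSeq start on GRCm38.p6. A cyclic AMP response element was spelled TGACGTCA, a palindrome that reads alike on both strands. It was found in 4 of the 29 early response genes with a window (13.8%). It was also in 3.80% of detected protein-coding genes with a window and 1.79% of all 32851 windows. Of the 100 most abundant protein-coding genes, 78 had a window and 6 of these held the element (7.69%). The 30 bases around it are shown for the 4 early response genes, because all 4 were above 100 FPKM. The motif is in capitals, each is read on the strand of its gene, and a match of letters does not show binding.
Ppp1r15a, chr7:45526262-45526291, minus strand, 5 bases before the start: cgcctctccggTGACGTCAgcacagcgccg
Btg2, chr1:134079303-134079332, minus strand, 159 bases before the start: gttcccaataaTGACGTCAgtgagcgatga
Dusp1, chr17:26508597-26508626, minus strand, 136 bases before the start: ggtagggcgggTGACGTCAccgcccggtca
Maff, chr15:79347480-79347509, plus strand, 22 bases before the start: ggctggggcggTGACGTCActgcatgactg

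Of the genes with this element, Dusp1, for a phosphatase that switches off MAP kinases, had 219 and 225 FPKM and Maff, for a small MAF factor, had 109 and 128 FPKM. The letters TATAAA of a TATA box were found, at any place, in 10 of the 29 early response genes with a window (34.5%). The share was 8.33% for detected protein-coding genes with a window and 13.6% of all windows. For the 100 most abundant protein-coding genes it was 23.1%, for the metallothionein and antioxidant list 37.5% and for the cytokine list 42.9%. None of the 12 chaperone genes with a window held these letters. The match was therefore not particular to early response genes. Position was not limited, so a match does not show a working TATA box. The AP-1 site TGAGTCA was in none of the 29, and 5.202% of all windows held it. Both non-palindromic motifs were searched on both strands.

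Chaperone genes were also detected throughout. All 18 members were detected, 12 reached 100 FPKM in both replicates, 16 were in the top decile, and the median was 180 FPKM. They held 2.78% and 3.01% of the counts. After Hspa5, the highest were Hsp90ab1, Hspb1 and Hspa8, given above. Genes known mainly for induction by heat shock factor were also abundant: Dnajb1, a cofactor of HSP70, had 522 and 528 FPKM, Bag3 443 and 517 FPKM and the inducible HSP70 gene Hspa1a 398 and 424 FPKM. Hspa1b stood at 43.7 and 42.8 FPKM, but Hspa1a and Hspa1b are near-identical copies, so how their reads were divided is uncertain. Inducible HSP90 (Hsp90aa1) had 345 and 496 FPKM. Hspb8 was the lowest, at 14.6 and 14.6 FPKM, and no member was more than 2-fold apart. Dnajb1, Bag3, Hspa1a, Hspa1b, Hsp90aa1 and Hspb8 were named after their values were seen.

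The heat shock element is built of inverted GAA units, and the pair GAANNTTC (N is any base, and the motif reads alike on both strands) lay in 9 of the 12 chaperone genes with a promoter window (75%). It lay in 6.83% of detected protein-coding genes with a window, 7.86% of all windows and 3 of 29 early response genes with a window. Shown, with the element in capitals, are the 6 of the 9 genes in which it lay before the start with 30 bases of window around it, each at its match nearest the start. Bag3, Hsph1 and Hspb8 hold it only elsewhere in the window and are not shown.
Hspb1, chr5:135887811-135887840, plus strand, 90 bases before the start: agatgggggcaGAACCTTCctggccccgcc
Hspa1a, chr17:34972242-34972271, minus strand, 97 bases before the start: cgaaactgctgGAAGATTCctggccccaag
Hspa1b, chr17:34959324-34959353, minus strand, 97 bases before the start: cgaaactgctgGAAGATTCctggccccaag
Dnaja1, chr4:40722333-40722362, plus strand, 117 bases before the start: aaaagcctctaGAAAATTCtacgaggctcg
Hspd1, chr1:55088053-55088082, minus strand, 132 bases before the start: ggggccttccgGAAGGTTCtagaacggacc
Hspe1, chr1:55088053-55088082, plus strand, 77 bases before the start: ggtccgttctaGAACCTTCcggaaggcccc

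Hspa1a and Hspa1b carry the same 30 bases at the same distance from the start. Hspd1 and Hspe1, which encode the mitochondrial HSP60 and its lid HSP10, are divergent neighbours that share one element read from opposite strands. Their levels were 132 and 173 FPKM for Hspd1 and 90.5 and 147 FPKM for Hspe1, and the cofactor gene Dnaja1 had 61.6 and 94.7 FPKM. RefSeq promoter windows are the source of all these sequences.

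**Figure D3:**
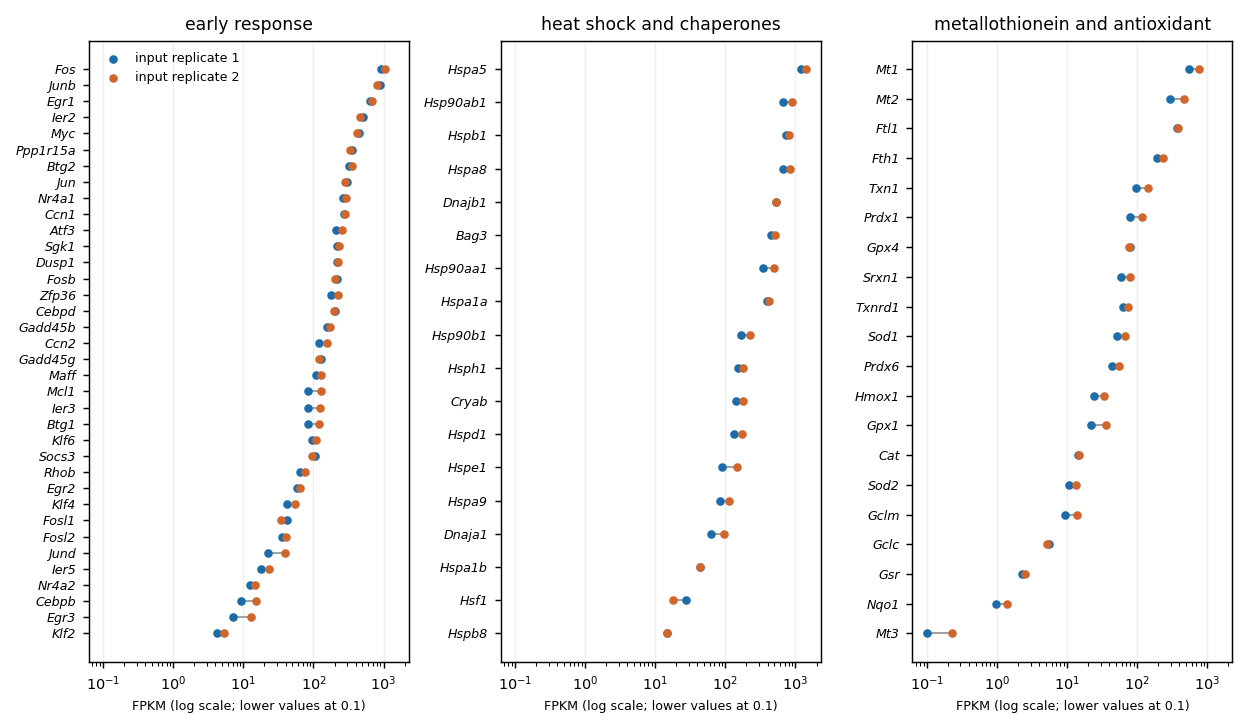
FPKM (log scale) of the early response, chaperone, and metallothionein and antioxidant genes, each a row with a point for input replicate 1 (blue) and replicate 2 (orange), values under 0.1 drawn at 0.1. The early response genes run from 4.24 and 5.35 FPKM for Klf2 to 929 and 1042 FPKM for Fos and the chaperones from 14.6 and 14.6 FPKM for Hspb8 to 1208 and 1415 FPKM for Hspa5, and Mt3 is the lowest of all rows.

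Metallothionein and antioxidant genes also had high levels, with 18 of 20 detected and a median of 54.0 FPKM. Metallothioneins bind zinc and copper, and Mt1 was followed by Mt2 at 293 and 462 FPKM. The ferritin subunits, which store iron, had 374 and 379 FPKM for Ftl1 and 194 and 233 FPKM for Fth1. Mt1 and Mt2 were both higher in replicate 2, by ratios of 1.36 and 1.57. The neuronal metallothionein gene Mt3 stood at 0 and 0.226 FPKM, and Nqo1, a target of NRF2, at 0.980 and 1.40 FPKM, so that both missed 1 FPKM in replicate 1. Mt3 and Nqo1 were named after their values were seen.

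Of 18 cytokine and inflammatory genes, 14 were detected (77.8%, against 42.2% of all protein-coding genes), with a median of 13.7 FPKM. The NF-kB inhibitor gene Nfkbia, itself a target of NF-kB, had 509 and 531 FPKM. Cxcl1, for a neutrophil attractant, had 379 and 470.3 FPKM, Nfkbiz, for a nuclear cofactor of NF-kB, 55.3 and 59.5 FPKM, and the monocyte attractant gene Ccl7 40.4 and 49.0 FPKM. The genes for the cytokines made chiefly by macrophages were low, with 0.398 and 0.441 FPKM for Tnf and 0.228 and 0.126 FPKM for Il1b, which were named after their values were seen. Cxcl1 and Ccl7 were above Tnf and Il1b in both replicates, but of the 37 chemokine ligand genes, a family counted after the values were seen, 13 were detected and 13 had no count.

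Genes of hypoxia, p53 and the integrated stress response were less uniform. Of 20 members, 17 were detected, and the median was 16.1 FPKM. Atf4, for the factor that carries the integrated stress response, was the highest at 156 and 209 FPKM and was the only one to reach 100 FPKM in both replicates. Cdkn1a, for the cell cycle inhibitor p21, had 98.4 and 89.6 FPKM, Trp53 for p53 itself 51.5 and 55.7 FPKM and Hif1a, for the oxygen-sensitive factor, 30.4 and 36.2 FPKM.

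Cell cycle genes were described in a G1 list and a list of S phase and mitosis, whose levels overlapped. Of 16 G1 regulators, 15 were detected (93.75%, against 42.2% of all protein-coding genes), with a median of 6.12 FPKM. After Cdkn1a the highest were Cdk4 at 45.1 and 55.7 FPKM, Ccnd1 (cyclin D1) at 32.7 and 37.8 FPKM and Ccnd3 (cyclin D3) at 33.9 and 34.0 FPKM. The replicates of Ccnd1 and Ccnd3 overlapped. Of 23 genes of S phase and mitosis, 11 were detected (47.8%, against 42.2% of all protein-coding genes), with a median of 1.10 FPKM. The detected ones were led by the replication genes Pcna, the sliding clamp, at 31.4 and 44.1 FPKM, the helicase subunits Mcm4 at 15.7 and 24.7 FPKM and Mcm7 at 12.5 and 11.5 FPKM, and Rrm2, a subunit of ribonucleotide reductase, at 11.0 and 11.8 FPKM. The span of Mcm7 overlaps Cops6, Ap4m1 and microRNA genes. Among the members under 1 FPKM in both replicates were Mki67 (Ki-67) at 0.346 and 0.335 FPKM, Cdk1 at 0.352 and 0.391 FPKM and Top2a (topoisomerase II alpha) at 0.603 and 0.668 FPKM, 3 genes named after their values were seen.

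In central metabolism, all 18 genes of the citrate cycle were detected, 17 of them at 10 FPKM or more in both replicates, and the median was 31.9 FPKM. Idh2, mitochondrial isocitrate dehydrogenase, had 79.3 and 100.4 FPKM, Sdha, a subunit of succinate dehydrogenase, 67.4 and 92.3 FPKM, Mdh2, malate dehydrogenase, 63.2 and 65.1 FPKM and Idh3g 48.3 and 56.0 FPKM. Glycolytic genes had a lower median of 17.1 FPKM, with 15 of 16 detected, but a wider range. The sums had the other order, at 823 and 934 FPKM for glycolysis beside 620 and 726 FPKM for the citrate cycle. Aldoa (aldolase A) had 228 and 270.2 FPKM, Ldha (lactate dehydrogenase A) 199 and 250.4 FPKM, Pkm (pyruvate kinase) 163 and 163 FPKM and Eno1 (enolase) 50.9 and 48.9 FPKM. Gapdh was listed at only 10.3 and 11.1 FPKM. Many processed pseudogenes nearly repeat its sequence and the handling of reads with several matches is not given in the sources used here, so this level is uncertain. Of 20 genes of fatty acid oxidation, 18 were detected, with a median of 8.39 FPKM, led by the electron carrier gene Etfa at 51.2 and 77.2 FPKM and the acyl-CoA dehydrogenase genes Acadl at 35.7 and 45.2 FPKM and Acadvl at 35.5 and 34.0 FPKM. The thiolase gene Acaa2 followed at 28.2 and 32.3 FPKM.

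Messages of the translation machinery were high, and those of its repressors moderate. Of 11 elongation genes, 10 were detected, with a median of 86.2 FPKM. After Eef1a1 came Eif5a, for the hypusine-bearing factor, at 389 and 466 FPKM, Eef2, for the translocase, at 361 and 434 FPKM and Tpt1, a growth-related message with a 5′ terminal oligopyrimidine tract, at 118 and 159 FPKM. Of 18 genes of translation repression and mRNA decay, 17 were detected, with a median of 17.4 FPKM. Zfp36l1, which sends AU-rich mRNAs to decay, had 157 and 161 FPKM and its paralogue Zfp36l2 had 61.1 and 64.0 FPKM. Eif4ebp1, for the cap-binding inhibitor that mTOR releases, had 58.6 and 64.9 FPKM. CPEB proteins bind the cytoplasmic polyadenylation element and can silence or activate an mRNA. Of the 4 CPEB genes, Cpeb1 was the most abundant at 16.5 and 15.0 FPKM, above Cpeb4 at 3.28 and 6.16 FPKM. Cpeb2, at 0.612 and 0.801 FPKM, and Cpeb3, at 0.205 and 0.585 FPKM, were under 1 FPKM, and for all 3 neighbouring pairs the replicates did not overlap.

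Receptors were counted by family after the values were seen. Of 43 receptor tyrosine kinase genes, 21 were detected (48.8%, near the 42.2% of all protein-coding genes). They were led by Musk, the agrin-dependent kinase of the neuromuscular junction, at 142 and 154 FPKM, above Fgfr1 and Fgfr4. Axl had 27.9 and 25.7 FPKM, Egfr 17.4 and 18.9 FPKM and Met, the receptor of hepatocyte growth factor on SCs, 13.1 and 13.7 FPKM. Among 64 cytokine and TNF receptor genes, 19 were detected (29.7%). The highest was Tnfrsf12a, for the TWEAK receptor FN14, at 408 and 429 FPKM, then Tnfrsf1a at 130.1 and 145 FPKM and Il17ra at 59.2 and 58.5 FPKM. Il6st, for the shared chain gp130, had 40.3 and 43.5 FPKM. Of 26 integrin genes, 6 were detected (23.1%), led by Itgb1 and Itga7. Few Wnt ligand genes reached 1 FPKM, with 1 of 19 detected (Wnt4, at 1.61 and 1.09 FPKM). Of 10 Frizzled receptors 2 were detected, Fzd4 at 13.9 and 16.02 FPKM and Fzd1 at 2.69 and 3.04 FPKM. Of 29 ligands of the TGF-beta and BMP family, 10 were detected, led by Bmp4 at 51.9 and 45.0 FPKM and Tgfb3 at 31.1 and 36.0 FPKM.

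Of the matrix genes, 18 of 18 were detected, with a median of 19.8 FPKM. Sparc, for a collagen-binding glycoprotein, had 261 and 331 FPKM, Col3a1 137 and 145 FPKM, Col6a1 107 and 100.1 FPKM and the basement membrane collagen gene Col4a1 68.7 and 65.9 FPKM. Col3a1 also belongs to the fibro-adipogenic list, described with the other cell types.

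Nuclear and imprinted long noncoding RNAs were detected for 11 of 12 members, with a median of 12.9 FPKM. Of all 33488 genes that are not protein-coding, 5.31% were detected. Malat1, which stays in nuclear speckles, was the highest at 229 and 193 FPKM, and Gas5, a host of small nucleolar RNAs, had 95.7 and 90.01 FPKM. Meg3, the maternally expressed RNA of the Dlk1-Dio3 domain, stood at 79.4 and 41.9 FPKM, a level 1.89-fold higher in replicate 1, on 6605 and 3148 counts. Another snoRNA host, Snhg8, had 22.9 and 33.3 FPKM. Of imprinted protein-coding genes, 11 of 12 were detected, with a median of 7.57 FPKM, and the highest were Peg3 at 79.4 and 71.4 FPKM, Mest at 34.7 and 46.4 FPKM, Grb10 at 29.7 and 29.8 FPKM and Igf2r at 21.7 and 24.1 FPKM. The span of Igf2r overlaps the antisense RNA Airn.

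Downstream of Meg3 on chromosome 12 lie Rian, a snoRNA host, at 6.87 and 7.32 FPKM, and Mirg, a microRNA host, at 13.7 and 9.45 FPKM. At least 20 counts in all also fell on each of 4 loci of the microRNA class in the domain, each higher in replicate 1. Mir381 had 29 and 11 counts, Mir487b 39 and 14, and Mir496a, which lies inside the span of Mirg, 17 and 11. The predicted gene Gm44322, on the opposite strand, had 20 and 12. This library type does not capture mature microRNAs, so these counts are of longer RNA that covers the hairpins. Mature microRNAs of Mir381, Mir487b and Mir496a are shown so that the loci can be identified, as far as the RefSeq table used here lists them (for Mir487b the 5p arm only), with the seed (bases 2 to 8) in capitals.
mmu-miR-381-3p: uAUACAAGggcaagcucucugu
mmu-miR-381-5p: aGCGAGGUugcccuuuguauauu
mmu-miR-487b-5p: uGGUUAUCccuguccucuucg
mmu-miR-496a-3p: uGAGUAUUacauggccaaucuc
mmu-miR-496a-5p: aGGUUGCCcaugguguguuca
No seed is shared among these 5.

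Markers of other cells of muscle were mostly at low levels. The antigens of the sort are given first. Ptprc (CD45) had 0 and 1 count, Pecam1 (CD31) stood at 1.99 and 1.47 FPKM on 57 and 38 counts, and Ly6a, which encodes Sca1, at 5.59 and 4.40 FPKM on 31 and 22 counts. Vcam1, the positive antigen, was above each of these in both replicates. The methods name male mice, and the Y-linked genes Ddx3y at 63.6 and 80.6 FPKM and Eif2s3y at 13.7 and 16.6 FPKM were detected, while Xist had 3 counts in each replicate.

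Of 20 mature myofibre genes, 11 were detected (55%, against 42.2% of all protein-coding genes). The list had a median of 1.76 FPKM and sums of 71.7 and 76.8 FPKM. Atp2a1, the fast calcium pump, had 16.9 and 15.8 FPKM and skeletal actin (Acta1) 16.4 and 15.1 FPKM. Below them were Tpm2 at 6.50 and 8.78 FPKM and Eno3, muscle enolase, at 7.12 and 5.26 FPKM. The fast myosin gene Myh4 was under 1 FPKM, at 0.434 and 0.561 FPKM. The span of Acta1 overlaps Gm20388.

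Endothelial genes were led by Tek, the angiopoietin receptor, at 11.6 and 14.3 FPKM and Cldn5 (claudin 5) at 8.13 and 4.59 FPKM, then Esam at 4.70 and 5.12 FPKM. Of 11 members, 6 were detected (54.5%, against 42.2% of all protein-coding genes). The list had a median of 1.08 FPKM and sums of 31.2 and 29.96 FPKM. Cdh5 (VE-cadherin), the defining cadherin of the type, was at 0.724 and 0.802 FPKM, and the VEGF receptor gene Kdr at 0.361 and 0.373 FPKM. Leukocyte genes were detected in 5 of 16 cases (31.25%) and were unequal between replicates. Their sums were 30.3 and 47.5 FPKM, and the neutrophil gene S100a8 had 4.38 and 18.0 FPKM on 14 and 52 counts. The macrophage gene Cd68 went the other way, at 12.4 and 6.13 FPKM, while Lyz2 had 5.12 and 5.86 FPKM and S100a9 had 3.33 and 6.92 FPKM. All these values rest on under 100 counts each.

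Fibro-adipogenic cells are the interstitial mesenchymal cells of muscle, and their list was uneven. Of 12 members, 7 were detected (58.3%, against 42.2% of all protein-coding genes), with sums of 772 and 823 FPKM that came mostly from 3 genes. These were Gsn (gelsolin) at 437 and 439.9 FPKM, Dpt (dermatopontin) at 157 and 200.1 FPKM and Col3a1. Col1a1 followed at 23.6 and 18.5 FPKM. Pdgfra, the defining receptor of these cells, had 4 and 2 counts, a level of 0.0867 and 0.0481 FPKM, and Pi16 had 0.205 and 0.189 FPKM. Pericyte and smooth muscle genes were detected in 9 of 9 cases, with sums of 205 and 248 FPKM. Acta2 (smooth muscle actin) had 133 and 159 FPKM, Rgs5 38.2 and 56.7 FPKM, Kcnj8 10.8 and 11.2 FPKM and Pdgfrb 7.34 and 6.73 FPKM. The lowest of the list were Myh11, a myosin of mature smooth muscle, at 1.17 and 1.997 FPKM and the pericyte gene Cspg4 (NG2) at 1.15 and 1.13 FPKM. Which cells held these messages was not tested.

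In the remaining lists no member reached 10 FPKM. Of 8 Schwann cell genes, 4 were detected (50%, near the 42.2% of all protein-coding genes). The highest value in the list was 9.47 FPKM, and the sums were 16.9 and 20.7 FPKM. Among the detected myelin genes, Mal had 2.89 and 3.90 FPKM and Mbp 3.002 and 3.13 FPKM. Tenocyte genes were detected in 4 of 6 cases (66.7%). Fmod (fibromodulin) was at 5.92 and 8.01 FPKM, Thbs4 at 4.36 and 4.91 FPKM, Tnmd (tenomodulin) at 2.57 and 1.78 FPKM and Comp at 1.83 and 1.06 FPKM. None of 6 adipocyte genes was detected, and their sums were 0.951 and 0.959 FPKM, mostly from Adipoq at 0.787 and 0.698 FPKM. Lep (leptin) and Retn (resistin) had no count, where 3 counts would have given 0.194 and 0.215 FPKM for Lep and 0.413 and 0.458 FPKM for Retn. Haemoglobin genes were low, at 2.55 and 4.39 FPKM for Hbb-bs and 1.34 and 4.45 FPKM for Hba-a1, with 0.326 and 1.08 FPKM for Hba-a2 and 0.927 and 0 FPKM for Hbb-bt. The 2 alpha-globin genes are near-identical, so their values are uncertain. Olfactory receptor genes, which muscle is not known to use, give a background: 2 of 1106 were detected and 1046 had no count.

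**Figure D4:**
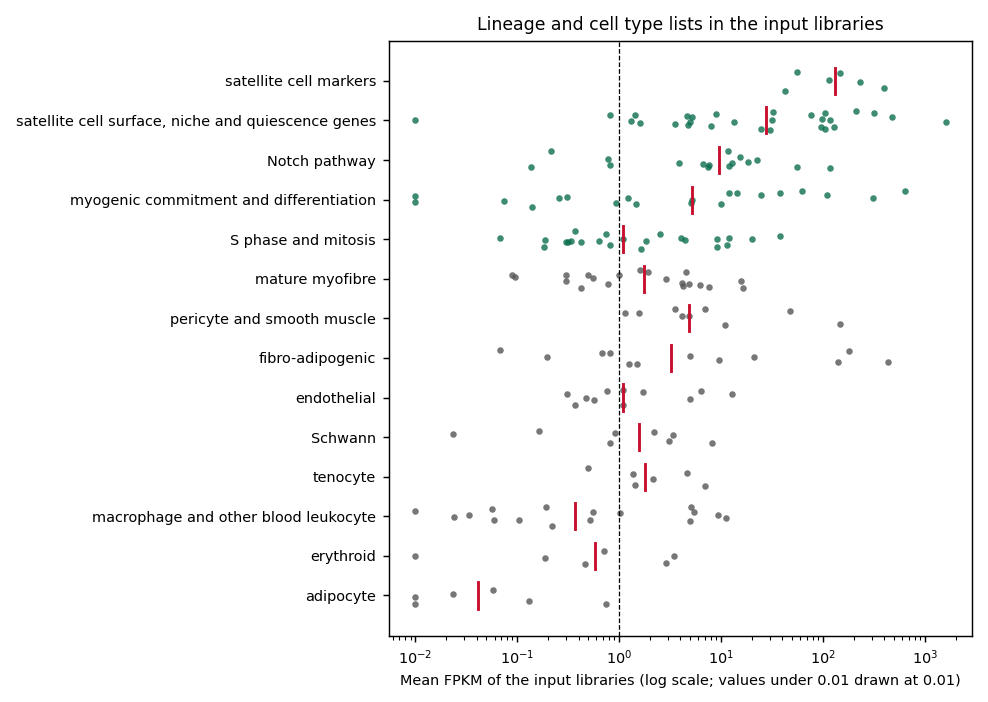
Mean FPKM over both input replicates (log scale, values under 0.01 drawn at 0.01) of the members of lineage lists (green) and lists of other cell types (grey), with a red bar at each list's median and a dashed line at 1 FPKM. The medians lie at 130 FPKM for the SC markers, 27.6 FPKM for the SC surface list and 0.0410 FPKM for the adipocyte list, and a few genes of the pericyte and fibro-adipogenic lists stand above 100 FPKM.

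Beside this shared profile, the replicates differed in kinds of RNA. The median log2 ratio of replicate 2 to replicate 1 was 0.17 over 9247 detected protein-coding genes and 0.22 over 775 processed pseudogenes, but -0.24 over 142 lincRNAs, -0.20 over 171 antisense RNAs, -0.44 over 45 sense intronic RNAs and -0.40 over 237 genes of the class TEC, which are unproven transcripts. On the TPM scale these medians were -0.02, 0.02, -0.43, -0.39, -0.63 and -0.59 in the same order, so protein-coding genes moved to near 0 and the other noncoding classes stayed below it. Of the TEC genes, 75.5% were higher in replicate 1, beside 31.6% of protein-coding genes. As a share of counts, lincRNAs were 1.16% and 0.892%, TEC genes 0.4995% and 0.324%, antisense RNAs 0.301% and 0.212%, and sense intronic RNAs 0.0738% and 0.0445%. Malat1, Meg3 and Neat1 (at 28.2 and 16.9 FPKM) were higher in replicate 1, as these classes were. Their list of 12 nuclear and imprinted RNAs was mixed, with 6 members higher in replicate 2 in FPKM and 3 in TPM. Ribosomal RNA went the other way, at 0.480% and 0.636% of counts, as did mitochondrial ribosomal RNA, at 0.294% and 0.375%. The replicate ratio also moved with gene length, from a median of 0.36 over 211 genes of up to 1000 bases to 0.14 over 1681 genes longer than 8000 bases. The part of RNA quality or library preparation in these differences was not tested.

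**Figure D5:**
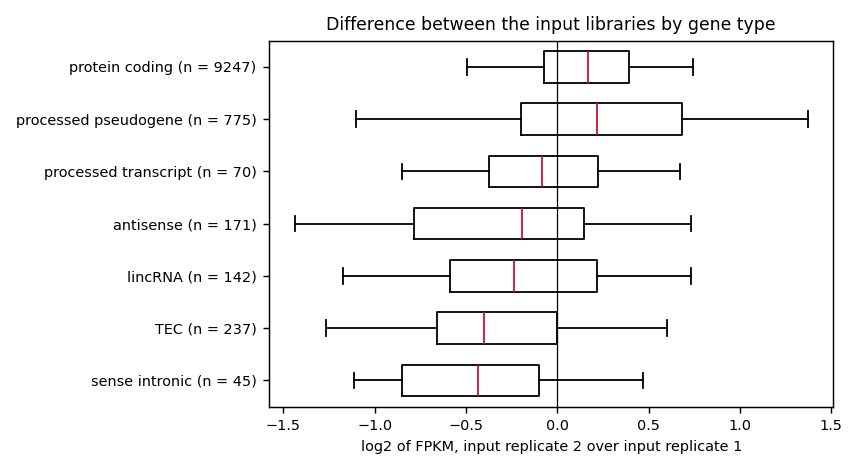
Log2 ratio of FPKM in input replicate 2 over replicate 1 (x) for detected genes of each class (rows, with n), with the median in red, boxes at the quartiles and whiskers at the 5th and 95th percentiles. Protein-coding genes have a median of 0.17 and TEC genes of -0.40, on opposite sides of 0, and the boxes of most classes overlap.

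Among 7547 protein-coding genes with at least 100 counts in all, those furthest apart between replicates were of moderate or low level. Higher in replicate 1 were Gm47283 at 5.79 and 1.82 FPKM, Itgb4 (integrin beta 4) at 2.29 and 0.893 FPKM and Map3k12, a stress kinase gene, at 4.45 and 1.80 FPKM. Kcp, a BMP regulator gene, had 8.85 and 3.70 FPKM, and the muscle ubiquitin ligase subunit gene Asb2 had 6.20 and 2.72 FPKM. These 5 lay between 0.893 and 8.85 FPKM. Higher in replicate 2 were Umad1 at 1.04 and 3.74 FPKM, the kinase anchor gene Akap7 at 1.29 and 4.51 FPKM and Gm10800 at 8.56 and 28.8 FPKM. Srp54b, a signal recognition particle gene, had 1.30 and 3.95 FPKM, and Naf1, which assembles H/ACA ribonucleoproteins, had 4.50 and 12.6 FPKM. Srp54b has near-identical paralogues, so its value is uncertain. None of these 10 is an SC marker, a surface gene of the SC list or a stress gene of the lists above. Each of those lists has at most 36 members beside the 7547 genes compared, so this absence says little about their spread between replicates.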

How the data were processed

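Counts and FPKM of the input libraries were analysed as deposited. Per the study's methods, the authors aligned reads to mm10 by HISAT, and the deposited raw count of each gene came from featureCounts. The authors computed the deposited FPKM from this count, the summed exon length and a library total (4601245 and 4151541) above the counts on genes. The annotation release, strand setting and treatment of reads with several matches are not given in the sources used here, and the submitters' processing notes also name StringTie. Of 55376 genes, 54509 were matched to GENCODE M21 by symbol and chromosome, 785 by position and 82 not at all.

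Levels were summarised in Python 3.11.15 with pandas 2.3.3, and the biological coefficient of variation was estimated with edgeR 4.0.16 in R 4.3.3 on counts as deposited, on 11922 genes with a total count of at least 20. Its common value was 0.152, and its median was 0.259 in the lowest quartile of genes by level and 0.132 in the highest, and the script was tested on simulated data. With 1 group of 2 libraries, no comparison between groups was made. Genes were named by rule: the 6 markers, the 20 most abundant nuclear protein-coding genes, the 4 highest members of each list, members of other cell types at 0 counts, and the 5 genes furthest apart in each direction. All other genes were named after their values were seen. A few genes that the rule covers are not reported here. The members and lists were chosen with earlier results of these data known. Alternatives were TPM, other thresholds, other normalizations (TMM, RLE) and each library alone. Columns of the immunoprecipitates were not used.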

Additional observations from a re-analysis of the deposited data

How the results depend on the processing

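Detection depended on its threshold: 5622 genes had 5 FPKM and 17938 had at least 1 count in both libraries, against 11025 detected. Genes more than 2-fold apart numbered 84 with a total count of at least 100 and 1987 without a filter on counts, against 534. The 100 highest genes held 19.3% of counts without mitochondrial genes, 19.6% among protein-coding genes and 26.0% of TPM. Mitochondrial genes held 1.26% among protein-coding genes and 4.24% of TPM, ribosomal protein genes 4.86% of TPM and early response genes 3.49% of TPM. At 1 TPM, detected members became 19 for S phase and mitosis, 1 for adipocyte, 11 for endothelial and 17 for mature myofibre, and 1 adipocyte gene reached 0.5 FPKM. At 5 FPKM they were 6 for S phase and mitosis, 1 for Schwann, 1 for endothelial, 0 for erythroid, 2 for leukocyte, 4 for mature myofibre, 4 for pericyte and 1 for tenocyte. Across all settings 78 of these summary values kept within their limits and 24 did not. Among the counts of the other lists and the percentiles of all lists, 154 did and 60 did not. At 5 FPKM, for example, the G1 regulators detected fell from 15 to 8. For the detected genes, the shares and the member counts of the lists named here, either library alone stayed within the limits. The limit of a count was a set fold of its main value. For the shares the outcome was fixed in advance, because the main value was the mean of the libraries and the limit their standard deviation. No paired analysis was possible because there is only 1 group and no groups were compared. Levels under 0.326 and 0.361 FPKM on a gene of 2000 bases rest on under 3 counts and are not resolved at this depth.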
